A study of Mus musculus with 6 samples.

Results

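The F-box protein genes of the mouse were examined in two-cell embryos that had received extra PIASy, a SUMO ligase also known as PIAS4. A row was taken as a member when its gene type was protein-coding and its symbol began with Fbxw, Fbxl or Fbxo and a number, and Fbxo5 was left out. This gave 77 genes of the 53023 in the table, or of its 21963 protein-coding genes. Of these, 14 were the Fbxw genes of chromosome 9 with numbers from Fbxw13 to Fbxw28, known as an oocyte cluster, and 63 were other F-box genes, of which 9 were Fbxw, 18 Fbxl and 36 Fbxo genes.

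F-box proteins are the interchangeable receptors of SCF ubiquitin ligases, which tag proteins for the proteasome. The F-box itself binds SKP1, which sits on the cullin CUL1, and RBX1 brings in the ubiquitin-conjugating enzyme. The rest of the protein chooses the substrate, through WD40 repeats in the Fbxw group, leucine-rich repeats in the Fbxl group and other domains in the Fbxo group. Removal of maternal proteins by the proteasome is part of the passage from egg to embryo, which is the setting of the study.

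All embryos were of the ICR strain and were collected as two-cell embryos at 28 h post insemination (hpi), after culture in KSOM medium. Zygotes of the PIASy-WT group received mRNA for wild-type PIASy in the cytoplasm, and those of the PIASy-Mut group received mRNA for PIASy with C335F, a change that removes its SUMO ligase activity. Injection took place from 1.5 to 3 hpi with mRNA at 100 ng/µL, and zygotes that fluoresced at 9 hpi were kept. The non-injection group was not injected with any RNA, so the act of injection is shared by PIASy-WT and PIASy-Mut and absent from the control. Each of the 3 groups gave 2 libraries of full-length cDNA, each from a pool of 5 embryos without the zona pellucida.

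The 6 libraries held between 871663 and 1363928 fragments on genes, recovered from the deposited FPKM (fragments scaled to gene length and library size), so that 3 fragments, taken here as the limit of detection, were 2.20 to 3.44 CPM (fragments scaled to the library size). Pias4 was at 2.98 and 3.59 FPKM in non-injection, at 862 and 611 with PIASy-Mut and at 610 and 579 with PIASy-WT, as the labels state. The 6 two-cell markers were above 3 fragments in every library, and so were 6 of 7 oocyte and egg markers. Of 10 cumulus cell markers, 7 were at or under 3 fragments in all libraries, and Foxl2, Amh and Inhba were at 0. Their sum was 8.80 and 18.6 CPM in non-injection, 15.5 and 27.5 with PIASy-Mut and 35.5 and 26.1 with PIASy-WT, and its part in the results was not tested. The summed oocyte and egg markers stood at 4291 and 3793 CPM in non-injection, 3859 and 6117 with PIASy-Mut and 7746 and 7365 with PIASy-WT, and the two-cell markers at 1755 and 1679, 1695 and 2007, and 1261 and 896 CPM. No library of oocytes or of other tissues was measured, so whether the cluster is restricted to oocytes was not tested. All levels are shares of a library, and in a pool of embryos fewer cells of a kind and less RNA per cell cannot be told apart.

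The chromosome 9 cluster is a row of near copies. In the annotation of the deposited table its 14 genes lie on the minus strand between 109139447 and 109790670 of chromosome 9 (mm10), a span of 651224 bases. No other protein-coding gene lies between them, and the gaps between neighbours run from 12081 to 56726 bases, with a median of 27513. The longest gap, between Fbxw19 and Fbxw15, holds the pseudogene Fbxw23, which was left out by its gene type. The coding sequences of the 14 genes are 1395 to 1410 bases long, and pairs of them are identical at 81.2% to 99.1% of positions, with a median of 84.6% over 91 pairs. The closest pair is Fbxw14 and Fbxw28. These 2 genes share 58.9% and 61.5% of their 50-base sequences with other genes, so that the split of fragments between them is uncertain, against 5.77% to 21.5% in the other 12 cluster genes and a median of 0 in the F-box genes outside the cluster.

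The likeness goes on in front of the genes. A RefSeq promoter entry, of 250 bases before and 50 after the start, was found for 57 of the 77 genes, among them 11 of the cluster (Fbxw13, Fbxw22 and Fbxw27 had none). Over the 250 bases before the start the 11 cluster genes were identical to each other at 71.6% to 97.2% of positions, with a median of 87.2% over 55 pairs, whereas the 46 other F-box genes reached 46.4% to 68.0% over 1035 pairs, with a median of 57.2%. The following stretches of 150 bases (RefSeq, GRCm38.p6, written 5′ to 3′ on the strand of the gene and lying before its start) show 4 of them, for the gene with the highest level, for Fbxw18, and for Fbxw20 and Fbxw26, with every CAGCTG in capitals.
Fbxw24 (chr9:109626060-109626209, minus strand): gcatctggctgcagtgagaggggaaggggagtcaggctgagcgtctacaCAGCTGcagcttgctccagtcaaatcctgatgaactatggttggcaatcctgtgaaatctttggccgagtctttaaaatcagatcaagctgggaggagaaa
Fbxw18 (chr9:109702701-109702850, minus strand): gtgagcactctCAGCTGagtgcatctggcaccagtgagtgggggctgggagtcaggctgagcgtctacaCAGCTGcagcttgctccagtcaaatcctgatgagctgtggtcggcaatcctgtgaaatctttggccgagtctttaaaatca
Fbxw20 (chr9:109234755-109234904, minus strand): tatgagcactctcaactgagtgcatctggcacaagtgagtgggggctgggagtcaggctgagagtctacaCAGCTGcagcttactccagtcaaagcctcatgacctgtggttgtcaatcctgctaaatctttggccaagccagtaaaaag
Fbxw26 (chr9:109746090-109746239, minus strand): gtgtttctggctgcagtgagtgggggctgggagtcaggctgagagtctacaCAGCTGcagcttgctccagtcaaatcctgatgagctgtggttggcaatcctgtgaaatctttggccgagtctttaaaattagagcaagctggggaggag
The same order of letters around CAGCTG can be followed from one stretch to the next, and Fbxw18 alone of the 4 holds CAGCTG at 2 places.

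The letters CAGCTG were found in all 11 cluster promoters, in 9 of the 46 other F-box promoters and in 16.3% of all 32851 promoters of the same length, with both strands searched. They are one form of CANNTG, the E-box known as a binding motif of basic helix-loop-helix proteins, which was found in 11 of 11 and 33 of 46 and is common, at 72.3% of all promoters. CAGCTG was singled out after the sequences were seen. TAATTG, a homeodomain motif, was in 0 of 11 cluster promoters and 2 of 46 others (2628 of all 32851), GGATTA in 1 of 11 and 2 of 46 (7.06% of all), and CCAAT in 1 of 11 and 13 of 46 (37.4% of all). The longest run of letters common to all 11 cluster promoters before the start was AAATCTTTGGC, of 11 bases. It was searched for as such a run, so its presence in all 11 was set in advance. It also stood in 5 promoters of genes outside the cluster. These matches describe copies of one sequence and were not tested as sites.

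F-box genes as a whole took a small and steady part of each library, from 0.530% to 0.643% of fragments. The cluster stood at 1892 and 1810 CPM in non-injection, at 1850 and 2088 with PIASy-Mut and at 2326 and 2135 with PIASy-WT, so that both PIASy-WT libraries were the highest, PIASy-WT replicate 2 only narrowly above PIASy-Mut replicate 2. The ratio of the PIASy-WT mean to the non-injection mean was 1.20, and it was also 1.20 without Fbxw14 and Fbxw28. The other F-box genes together ranged from 3818 and 4054 CPM in non-injection, and 4579 and 3837 with PIASy-Mut, to 3398 and 3168 with PIASy-WT. The cluster thus held 33.1% and 30.9% of F-box fragments in non-injection, 28.8% and 35.2% with PIASy-Mut and 40.6% and 40.3% with PIASy-WT.

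**Figure D1:**
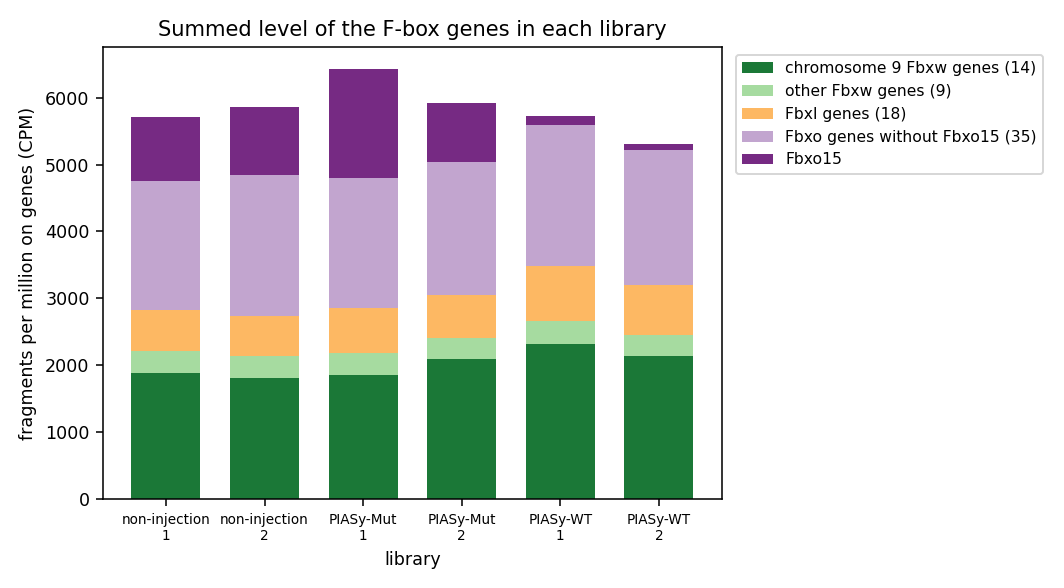
Summed level of the F-box genes in each of the 6 libraries, in CPM, stacked by group of genes with the number of genes in brackets. The Fbxo15 block is 950 and 1025 CPM in non-injection and 140 and 88.7 with PIASy-WT, while the cluster block is 1892 and 1810 CPM in non-injection and 2326 and 2135 with PIASy-WT.

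The lower sum of the other group lay in a single gene. Fbxo15, a gene known for its activity in embryonic stem cells, held 32.9% and 32.7% of Fbxo fragments in non-injection, 45.6% and 31.2% with PIASy-Mut and 6.27% and 4.23% with PIASy-WT. Without it the Fbxo genes summed to 1934 and 2107 CPM in non-injection, 1944 and 1974 with PIASy-Mut and 2097 and 2011 with PIASy-WT, so that non-injection spanned both other groups and PIASy-WT lay above PIASy-Mut. With Fbxo15 left out (a choice made after its values were seen), the cluster held 39.8% and 37.4% of F-box fragments in non-injection, 38.6% and 41.5% with PIASy-Mut and 41.7% and 40.9% with PIASy-WT. The difference between PIASy-WT and non-injection in this share was then 2.72 percentage points in place of 8.45, and the PIASy-WT and PIASy-Mut libraries overlapped. The summed Fbxl genes were at 604 and 585 CPM in non-injection, 664 and 646 with PIASy-Mut and 827 and 753 with PIASy-WT. Both PIASy-WT libraries were thus the highest, and most of the difference lay in Fbxl5, given below, and Fbxl17. Fbxl17, named after its values were seen, was at 20.6 and 23.2 FPKM in non-injection, 22.8 and 24.7 with PIASy-Mut and 34.7 and 32.3 with PIASy-WT. The 9 other Fbxw genes stayed between 314 and 338 CPM in all libraries.

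The test compared groups gene by gene with limma on log2(FPKM + 1) over 16100 genes, and calls were made where the Benjamini-Hochberg adjusted p did not exceed 0.05. All 14 cluster genes and 47 of the 63 other F-box genes reached an FPKM of 1 in 2 or more libraries and were tested. PIASy-WT against non-injection, which asks what excess PIASy does to the embryo, called 2 of the 61 F-box genes lower, Fbxo15 and Fbxo33, where 5.76% of all genes tested were called lower. It called 0 higher, where 1.03% of all genes were. At an unadjusted p under 0.05 there were 9 lower and 7 higher of the 61, beside 17.6% and 10.6% of all genes. PIASy-WT against PIASy-Mut, which asks what depends on the ligase activity, called 3 lower, Fbxo15, Fbxo33 and Fbxo47, where 6.01% of all genes were called, and 0 higher, where 0.82% were. At an unadjusted p under 0.05 there were 10 lower and 8 higher, beside 18.2% and 9.46% of all genes. Where the log2 fold change also had to reach 2 in size, 1 gene was called lower against non-injection (3.81% of all genes) and 2 against PIASy-Mut (4.06% of all genes). Both comparisons share the PIASy-WT libraries. A fit with limma's voom on the recovered fragments called 6 lower and 2 higher against non-injection, where it called 11.8% and 4.99% of all genes, and 8 lower and 1 higher against PIASy-Mut, where it called 11.7% and 3.31%.

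The calls changed when libraries were left out. Without any one of the 4 libraries of PIASy-WT and non-injection, 0 of the F-box genes and at most 1 of all genes were called in PIASy-WT against non-injection, and without either PIASy-Mut library 4 F-box genes were called lower, while the calls over all genes went to 12.2% and 12.3%. For PIASy-WT against PIASy-Mut, 7 F-box genes were called lower without PIASy-Mut replicate 2, where 13.2% of all genes were, and 0 without any other library.

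Among the Fbxo genes, Fbxo15 had the largest difference. This gene (ENSMUSG00000034391.11, chromosome 18, 84934782 to 84981472, plus strand) was at 283 and 305 FPKM in non-injection, 486 and 266 with PIASy-Mut and 41.8 and 26.4 with PIASy-WT. Both PIASy-WT libraries lay far under the other 4, and the PIASy-Mut libraries stood apart from each other. The mean ± SD was 294 ± 15.7 in non-injection, 376 ± 156 with PIASy-Mut and 34.1 ± 10.9 with PIASy-WT (n = 2 each). Its log2 fold change was -3.11 ± 0.37 (SE) when set against non-injection (limma adjusted p = 0.023) and -3.40 ± 0.37 when set against PIASy-Mut (adjusted p = 0.022).

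Fbxo33, whose product is known to bring a Y-box protein to degradation (ENSMUSG00000035329.7, chromosome 12, 59200655 to 59219725, minus strand), was at 61.9 and 58.2 FPKM in non-injection, 60.3 and 52.1 with PIASy-Mut and 18.6 and 22.4 with PIASy-WT. Non-injection and PIASy-Mut lay side by side and both PIASy-WT libraries below them. The log2 fold changes were -1.51 ± 0.24 and -1.41 ± 0.24 (SE), with limma adjusted p of 0.032 and 0.033. Fbxo47, a gene known to be needed for meiosis in germ cells (ENSMUSG00000070336.3, chromosome 11, 97853826 to 97884154, minus strand), was at 41.6 and 49.0 FPKM in non-injection, 77.9 and 34.4 with PIASy-Mut and 14.05 and 8.30 with PIASy-WT. Here too both PIASy-WT libraries were the lowest, and PIASy-Mut replicate 1 was the highest. Its log2 fold change was -2.16 ± 0.45 (SE) against PIASy-Mut (limma adjusted p = 0.048) and -1.96 ± 0.45 against non-injection, which missed the threshold (adjusted p = 0.057). Of 15 other settings of the fit, the call of Fbxo47 against PIASy-Mut was kept in 4. The calls of Fbxo33 were kept in 10 against non-injection and 6 against PIASy-Mut, and those of Fbxo15 in 11 and 9. None of the 3 genes overlaps an exon of another gene or shares 50-base sequences with one.

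Fbxo8, an F-box protein with a Sec7 domain, was second to Fbxo15 among the F-box genes outside the cluster in mean FPKM over the 6 libraries, a rank that rests on PIASy-WT, since Fbxo11 had the higher mean in non-injection and PIASy-Mut. It was at 74.8 and 92.0 FPKM in non-injection, 63.5 and 107 with PIASy-Mut and 173 and 178 with PIASy-WT. Both PIASy-WT libraries were above the other 4, but the log2 fold changes of 1.07 ± 0.31 and 1.08 ± 0.31 (SE) missed the threshold (limma adjusted p = 0.090 and 0.091), with 95% intervals of 0.31 to 1.83 and 0.32 to 1.84. It was called higher in 4 of 15 other settings against non-injection and in 2 against PIASy-Mut, voom among them in both. Fbxo11, which acts on the repressor BCL6, was at 97.3 and 122 FPKM, 85.8 and 87.2, and 101 and 82.7 in the same order of groups, so that PIASy-Mut lay below non-injection and PIASy-WT overlapped both. Fbxo34 was at 62.4 and 51.5, 83.8 and 46.4, and 31.9 and 35.004 FPKM. Its PIASy-WT libraries were the lowest, with log2 fold changes of -0.74 and -0.88 and limma adjusted p of 0.210 and 0.156.

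Of the Fbxo genes with a known part in the egg, Fbxo43 encodes Emi2, which holds the egg in metaphase by inhibiting the anaphase-promoting complex. It was at 10.5 and 12.9 FPKM in non-injection, 4.56 and 5.97 with PIASy-Mut and 14.6 and 10.3 with PIASy-WT. Its PIASy-Mut libraries were the lowest, and non-injection and PIASy-WT overlapped. The log2 fold change was -1.03 with PIASy-Mut against non-injection (limma adjusted p = 0.947) and 1.095 with PIASy-WT against PIASy-Mut (adjusted p = 0.097). Fbxo30 ranged from 3.54 to 10.4 FPKM and Fbxo7, a gene of mitochondrial clearance, from 1.47 to 2.53 FPKM, and neither was called. Fbxo32, the muscle atrophy ligase atrogin, had at most 6 fragments and was not tested.

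**Figure D2:**
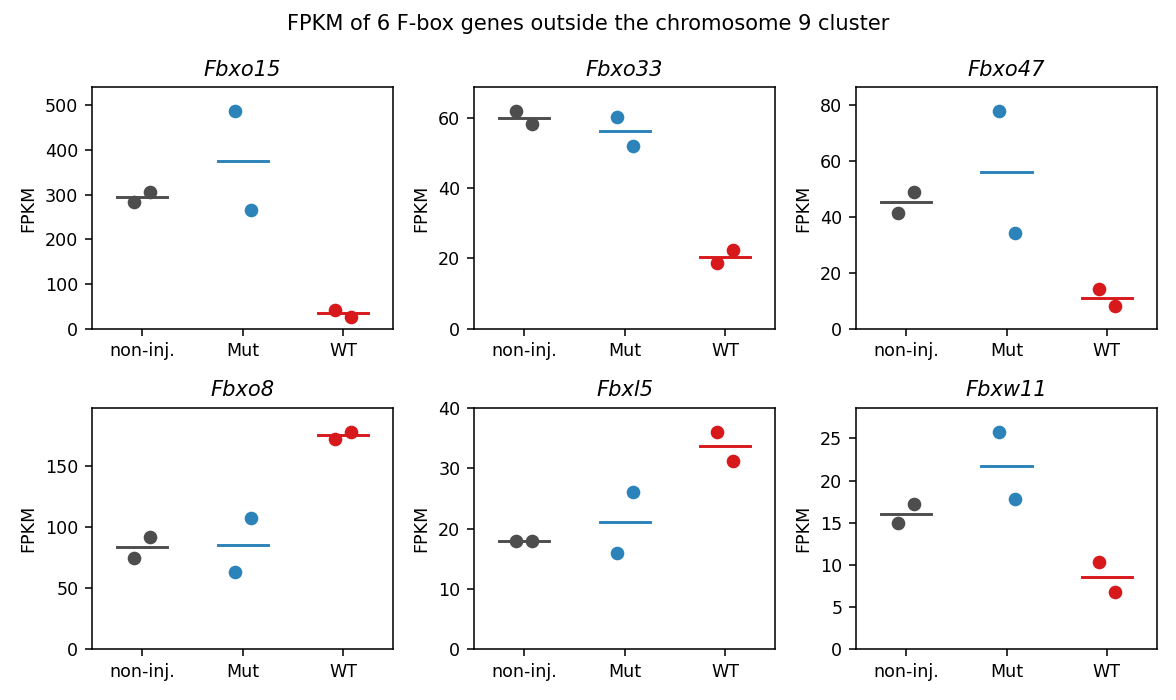
FPKM of 6 F-box genes outside the cluster in each library, on linear axes from 0, with points for libraries and lines for the mean of 2. Fbxo15 (41.8 and 26.4 FPKM in PIASy-WT), Fbxo33 and Fbxo47 were called lower in PIASy-WT in at least 1 comparison, and Fbxo8, Fbxl5 and Fbxw11 were not called.

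Of the Fbxl genes limma called none. Of the 15 tested, 10 had a log2 fold change above 0 with PIASy-WT when set against non-injection, with a median of 0.41, and 9 when set against PIASy-Mut, with a median of 0.26, where 50.5% and 48.3% of all genes were above 0. Among the 7 that reached an FPKM of 5 in 2 or more libraries, 4 were above 0 and 3 below in each comparison. The value farthest from 0 was a negative one, that of Fbxl12 (named after its values were seen), at -1.30 and -1.32 with limma adjusted p of 0.202 and 0.200. Of the exon bases of Fbxl12, 37.1% overlap the gene Ubl5 on the opposite strand. It shares 35.0% of its 50-base sequences with other genes, so part of its signal may not be its own. In 8 of the 15 tested both PIASy-WT libraries were above both of non-injection, where 29.8% of all genes tested were, and in 6 above both of PIASy-Mut, where 25.5% of all genes were. At an unadjusted p under 0.05 there were 4 higher against non-injection and 2 against PIASy-Mut, beside 10.6% and 9.46% of all genes, and voom called Fbxl5 higher against non-injection. Fbxl5, the iron-sensing receptor that removes an iron regulatory protein, was at 17.99 and 17.89 FPKM in non-injection, 15.9 and 26.1 with PIASy-Mut and 36.0 and 31.3 with PIASy-WT. Its PIASy-WT libraries were above the other 4, with log2 fold changes of 0.87 ± 0.31 (SE, limma adjusted p = 0.137) and 0.69 ± 0.31 (adjusted p = 0.215). Fbxl14, which acts on the factor Snail, was at 1.73 and 2.09, 1.31 and 2.32, and 3.82 and 3.82 FPKM, and its log2 fold change against non-injection was 0.73 (limma adjusted p = 0.273).

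The Fbxw genes outside the cluster lay mostly on the lower side. Of the 5 tested, 4 had a log2 fold change below 0 in each comparison of PIASy-WT, with medians of -0.85 and -1.25. None was called by limma. At an unadjusted p under 0.05 there were 3 lower in each comparison and 1 higher, Fbxw4 against PIASy-Mut, where 17.6% and 18.2% of all genes were lower and 9.46% higher against PIASy-Mut. With upper quartile scaling 2 of the 5 were above 0 against non-injection and 1 was lower at that p. The voom fit called 1 lower (Fbxw2) against non-injection and 3 (Fbxw2, Fbxw9 and Fbxw11) against PIASy-Mut, beside 11.8% and 11.7% of all genes, and Fbxw2 and Fbxw9 are named after their values were seen. Fbxw11, a close relative of the beta-TrCP receptor Btrc, was at 14.9 and 17.2 FPKM in non-injection, 25.7 and 17.8 with PIASy-Mut and 10.3 and 6.84 with PIASy-WT. Both PIASy-WT libraries were the lowest, with log2 fold changes of -0.85 ± 0.34 and -1.25 ± 0.34 (SE) and limma adjusted p of 0.162 and 0.076. Fbxw4 was the one with positive values, at 56.9 and 59.1, 36.2 and 53.4, and 78.4 and 78.2 FPKM. Its log2 fold changes were 0.43 and 0.82, with limma adjusted p of 0.345 and 0.115, and 21.4% of its exon bases overlap a gene on the opposite strand. Fbxw7, the receptor for cyclin E and Myc, had only 7 to 14 fragments per library, and Fbxw8, the partner of the cullin CUL7, had at most 6 and was not tested.

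The cluster genes differed far more from each other than from group to group. Fbxw24 had the highest mean FPKM of all 77 genes, though Fbxo15 was above it in PIASy-Mut replicate 1. It was at 455 and 390 FPKM in non-injection, 447 and 476 with PIASy-Mut and 495 and 430 with PIASy-WT, and alone held 30.0% to 36.0% of the fragments of the cluster. Its groups overlapped, with log2 fold changes of 0.13 ± 0.23 and -0.00 ± 0.23 (SE), the latter with a 95% interval of -0.57 to 0.57. Fbxw13 was the lowest, at 11.1 and 10.5, 8.32 and 7.58, and 9.97 and 7.48 FPKM, and the only one with a negative value against non-injection (-0.29). Between these ends the next gene in each step of the order overlapped its neighbour in FPKM, so that only Fbxw24 at the top and Fbxw13 at the bottom stood clear of the gene next to them in all libraries. Fbxw24, Fbxw18, Fbxw14, Fbxw22, Fbxw25, Fbxw20 and Fbxw13 kept the same rank of mean FPKM in the 3 groups, at 1, 2, 5, 8, 12, 13 and 14 of 14.

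**Figure D3:**
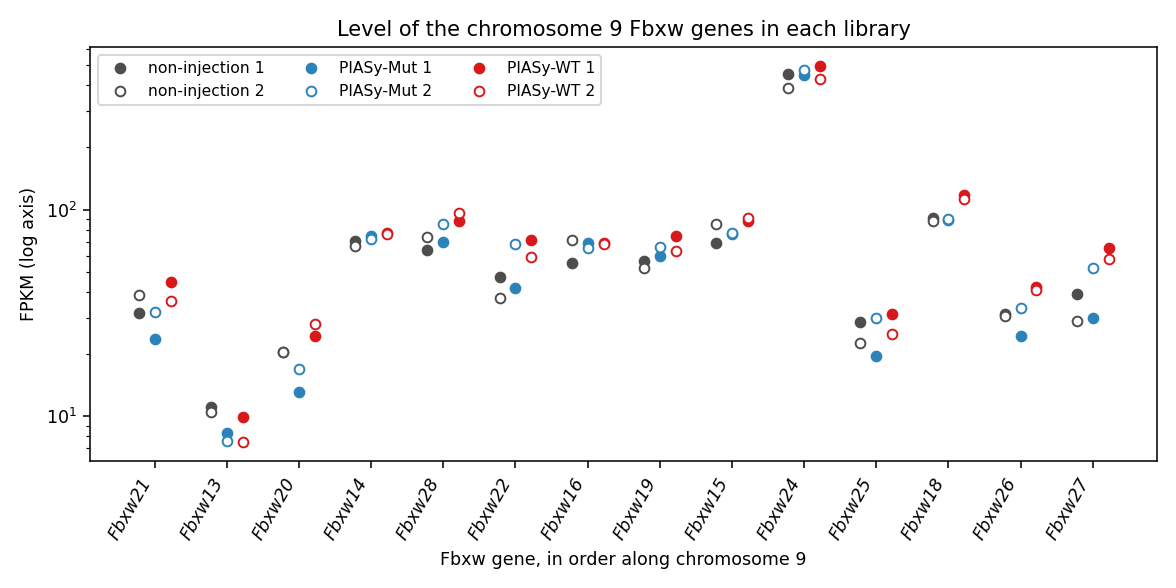
FPKM of the 14 chromosome 9 Fbxw genes in each library, on a log axis, with genes in their order along the chromosome and filled and open points for replicates 1 and 2. Fbxw24 lies between 390 and 495 FPKM and Fbxw13 between 7.48 and 11.1. Within a gene the highest library is 1.16 to 2.27 times the lowest.

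None of the 14 cluster genes was called in either comparison of PIASy-WT, where limma called 5.76% and 6.01% of all genes lower and 1.03% and 0.82% higher. In each, 1 was higher at an unadjusted limma p under 0.05, Fbxw27 and Fbxw20, which is near the 10.6% and 9.46% of all genes. The voom fit also called 0. Their values nevertheless leaned one way, with 13 of 14 log2 fold changes above 0 against non-injection (median 0.28, range -0.29 to 0.85) and 13 of 14 against PIASy-Mut (median 0.23, range -0.00 to 0.77). The median over all genes tested was 0.01 and -0.03, with 50.5% and 48.3% of values above 0. With upper quartile scaling or quantile normalization the median of the cluster was 0.53 and 0.55 against non-injection and 0.57 and 0.58 against PIASy-Mut, while that of all genes moved to 0.18 and 0.12, and to 0.20 and 0.11. Over the 47 other F-box genes the median was 0.07 and 0.12, with 25 above 0 in each. Over the 25 of them that reached an FPKM of 5 in 2 or more libraries it was -0.25 and -0.30, where that of all genes was -0.11 and -0.14. A gene could pass this filter through the groups where it is high, so these medians depend in part on the filter. In 9 of the 14 cluster genes both PIASy-WT libraries were above both of non-injection, and in 8 above both of PIASy-Mut, against 29.8% and 25.5% of all genes. Near copies in one array are not independent of each other. The oocyte and egg markers given above were likewise highest in the PIASy-WT libraries, and their part in the values of the cluster was not tested.

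Fbxw27 was at 39.2 and 28.9 FPKM in non-injection, 30.1 and 52.2 with PIASy-Mut and 65.4 and 57.8 with PIASy-WT. All PIASy-WT values were above the others, and the log2 fold change was 0.85 ± 0.34 (SE) against non-injection (limma adjusted p = 0.170). Fbxw20 was at 20.5 and 20.4, 13.2 and 17.0, and 24.5 and 27.9 FPKM, so that the 3 groups did not overlap and PIASy-Mut was the lowest. Its log2 fold change was 0.34 ± 0.27 (SE) against non-injection and 0.77 ± 0.27 against PIASy-Mut (adjusted p = 0.443 and 0.128). Fbxw18, second in level, was tight within its groups, at 90.7 and 88.5, 89.3 and 89.9, and 118 and 113 FPKM. Its log2 fold change was 0.36 ± 0.21 (SE) in both comparisons, with limma adjusted p of 0.316 and 0.328.

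Fbxw26 was at 31.4 and 30.5 FPKM in non-injection, 24.4 and 33.3 with PIASy-Mut and 42.2 and 41.0 with PIASy-WT, and Fbxw28 at 63.9 and 73.4, 70.0 and 85.3, and 88.2 and 95.9 FPKM. Both had PIASy-WT above the other 4 libraries, as did Fbxw14 (66.5 to 74.2 FPKM against 77.1 and 76.1) and Fbxw15 (68.7 to 85.2 against 88.3 and 91.4). In Fbxw22 the PIASy-WT libraries, at 71.1 and 58.8 FPKM, were above non-injection at 47.1 and 37.6, and PIASy-Mut spanned both at 41.7 and 68.1. Fbxw19 (52.5 to 74.2 FPKM) had PIASy-WT above non-injection only. Fbxw16 (55.0 to 71.7 FPKM), Fbxw21 (23.7 to 44.7) and Fbxw25 (19.5 to 31.4) overlapped between PIASy-WT and non-injection. Parts of Fbxw16 and Fbxw15 (11.7% and 11.2% of exon bases) overlap a gene on the opposite strand, and whether counting used the strand is not given in the sources used here.

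**Figure D4:**
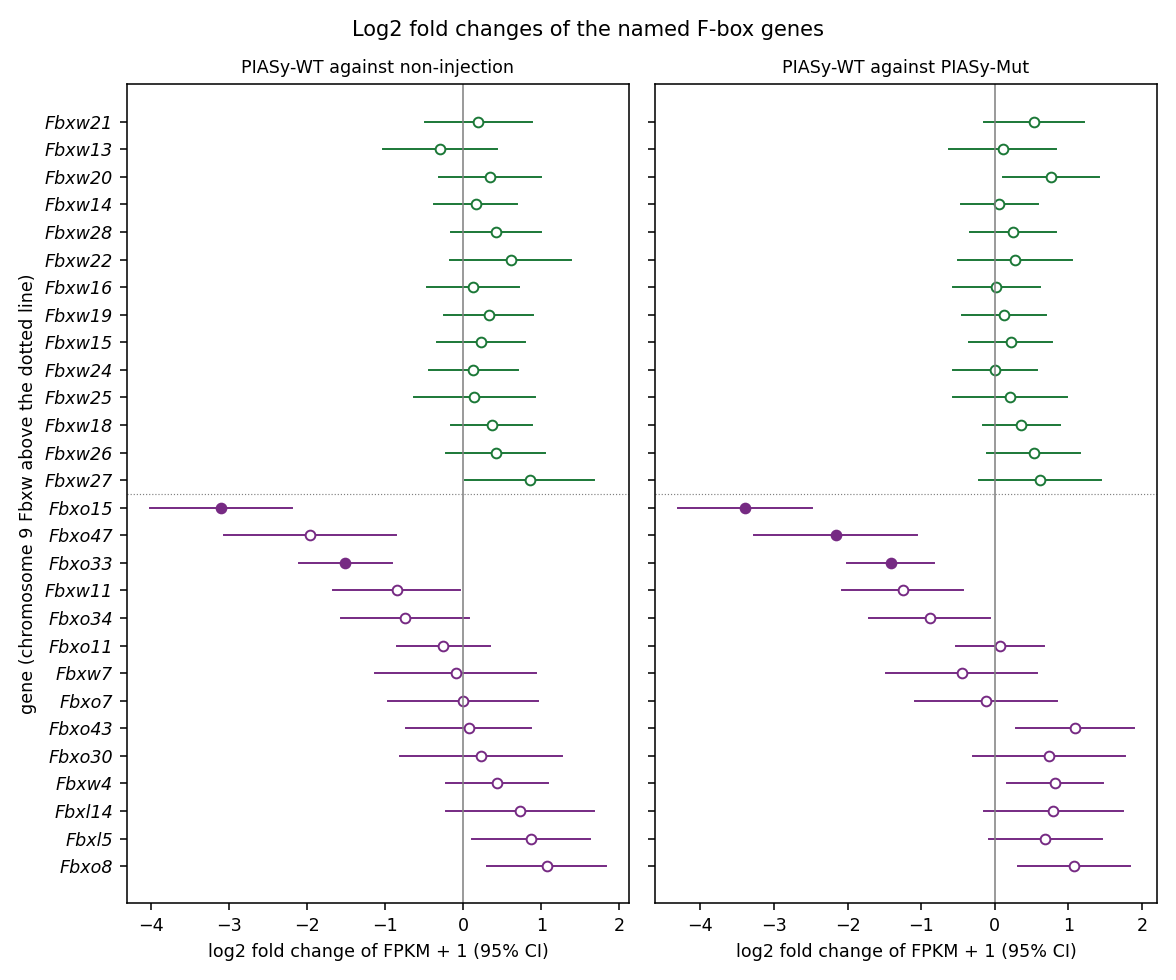
Log2 fold changes of FPKM + 1 with 95% intervals from limma for the 14 cluster genes (green, in chromosome order) and 14 other named F-box genes (purple), for PIASy-WT set against non-injection (left) and PIASy-Mut (right). Filled points passed the adjusted p of 0.05, which are Fbxo15 and Fbxo33 on the left and Fbxo15, Fbxo33 and Fbxo47 on the right, and 13 of 14 cluster genes lie above 0 in each panel.

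PIASy-Mut against non-injection, which asks what injection and an inactive ligase do, called 0 F-box genes lower or higher, where limma called 0.0% of all genes lower and 0.00621% higher, the latter being Pias4. At an unadjusted p under 0.05 there was 1 lower, Fbxo43, and 1 higher, Fbxl8, beside 2.09% and 2.37% of all genes, and voom also called 0. Of the 14 cluster genes 8 had a log2 fold change above 0, with a median of 0.05 and a range of -0.43 to 0.33, and the median was 0.02 over the other F-box genes and 0.04 over all genes.

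The 16 genes that were not tested had little or no signal. Their highest value was 2.28 FPKM, for Fbxw5 with PIASy-WT replicate 2, and 8 of them had no library above 3 fragments. Fbxo24 was at 0 in all libraries, which allows up to 2.20 to 3.44 CPM. In all, 49 of the 77 genes, among them the whole cluster, were above 3 fragments in every library.

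The partners that build the SCF ligase were read from the same fit. Of 24 listed genes 22 were tested, 2 were called lower against non-injection and 3 against PIASy-Mut, 0 higher in either, and the medians were 0.02 and 0.13. Over all genes 5.76% and 6.01% were called lower, and 1.03% and 0.82% higher. At an unadjusted p under 0.05 there were 7 and 6 lower and 5 and 4 higher, where 17.6% and 18.2% of all genes were lower and 10.6% and 9.46% higher. The voom fit called 6 and 5 lower (11.8% and 11.7% of all genes) and 3 and 2 higher (4.99% and 3.31%), and upper quartile scaling left 1 and 0 called lower (4.24% and 3.39% of all genes) and 0 and 1 higher (1.55% and 1.04%). Rnf7, a RING subunit related to Rbx1, was at 192 and 163 FPKM in non-injection, 285 and 151 with PIASy-Mut and 55.1 and 36.7 with PIASy-WT, with log2 fold changes of -1.95 and -2.18 (limma adjusted p = 0.041 and 0.033). Nedd8, the modifier that activates cullins, was at 184 and 201, 207 and 170, and 71.2 and 78.7 FPKM, with -1.35 and -1.32 (adjusted p = 0.034 in both). Cops6, a subunit of the signalosome that takes Nedd8 off again, was called against PIASy-Mut only, at -1.84 (adjusted p = 0.047), with -1.56 and 0.065 against non-injection. The core subunits Cul1 (0.76 and 0.81), Skp1a (0.68 and 0.07) and Rbx1 (-0.73 and -0.52) were not called by limma. With voom, Cul1 was called higher in both comparisons and Skp1a higher against non-injection only, while Rbx1 was not called. Both PIASy-WT libraries of Cul1 lay above all libraries of the other groups.

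F-box proteins whose genes carry other symbols lay mostly on the lower side. Of 7 such genes 5 were tested, all 5 had a log2 fold change below 0 in both comparisons of PIASy-WT, and the medians were -1.00 and -1.23, while 50.5% and 48.3% of all genes were above 0 (with upper quartile scaling 1 was above 0 against PIASy-Mut). Ccnf, which encodes cyclin F, was at 18.5 and 15.4 FPKM in non-injection, 19.4 and 11.8 with PIASy-Mut and 2.43 and 5.05 with PIASy-WT. It was the 1 gene of the list called lower against non-injection, where 5.76% of all genes were (-1.97, limma adjusted p = 0.046), and missed the threshold against PIASy-Mut (-1.83, adjusted p = 0.054). Skp2, which removes inhibitors of cyclin-dependent kinases, was at 7.36 and 6.18, 10.1 and 6.41, and 3.35 and 2.43 FPKM and was not called by limma (-1.00 and -1.23, adjusted p = 0.143 and 0.096). With upper quartile scaling 0 genes of the list were called in either comparison (4.24% and 3.39% of all genes were called lower). Quantile normalization also called 0 (4.34% and 3.04%). The voom fit called 2 lower against non-injection, Ccnf and Kdm2b, beside 11.8% of all genes. Against PIASy-Mut it called 3 lower, Ccnf, Kdm2b and Skp2, beside 11.7%.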

How the data were processed

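Total RNA of pools of 5 embryos was made into cDNA with SMART-Seq v4 and Nextera XT. The authors trimmed reads with Trim Galore, aligned them to mm10 with STAR, counted fragments per gene with featureCounts and deposited 1 table of FPKM for 53023 genes, and their own comparisons used DESeq2. The annotation release is not given in the sources used here. The table has 0 spike-in entries. Multiplied by gene length, 100% of the 113271 FPKM values above 0 were whole fragments (tolerance 0.001), from which depth and CPM were computed.

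Groups, each of 2 libraries, were set against each other in limma 3.58.1 under R 4.3.3 (lmFit and eBayes with trend, two-sided) on log2(FPKM + 1) of all 6 libraries, over the 16100 genes that reached an FPKM of 1 in 2 or more libraries, with 3 residual and 3.12 prior degrees of freedom and Benjamini-Hochberg adjustment. The pseudocount understates changes of low genes. Nothing states that the pools were separate matings, so p-values measure the spread between these samples. An exact permutation test of 2 against 2 cannot go below 0.333 and was not used.

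Genes, lists and motifs were chosen with earlier results of these data known. Named were all cluster genes above 3 fragments, all other members called, the 6 others of highest mean FPKM and 12 with well-known roles, of which 1 is not reported here. Promoters came from the RefSeq table (GRCm38.p6), coding sequences and exons from GENCODE M21. The fit was tested on simulated data with changes larger than those of most genes named here. That does not tell how well smaller changes are found. Same-numbered libraries correlated at 0.0037 to 0.0851 in their deviations from the group means, and the main fit did not pair them. With so few libraries this cannot tell whether same-numbered pools shared a mating or an injection day, which the labels do not state. Python 3.11.15, numpy 2.4.6, pandas 2.3.3, biopython 1.88 and matplotlib 3.10.9 were used. Alternatives were a pseudocount of 0.1, other filters and scalings, robust eBayes, voom on recovered fragments, a fit of the compared groups only, a replicate block and leaving out each library.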

Additional observations from a re-analysis of the deposited data

Results flagged for a closer look

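Fbxw23 is a transcribed unprocessed pseudogene inside the chromosome 9 cluster, between Fbxw19 and Fbxw15, and was left out of the 77 genes by its type. It is shown because it gave a signal outside the comparisons above that was higher in PIASy-WT than in the control libraries. It was at 119 and 129 FPKM in non-injection, 96.2 and 145 with PIASy-Mut and 198 and 245 with PIASy-WT, a higher level than every protein-coding gene of the cluster but Fbxw24. Its log2 fold change was 0.82 ± 0.28 (SE) against non-injection and 0.89 ± 0.28 against PIASy-Mut, and it was not called (limma adjusted p = 0.127 and 0.109). With 2 libraries per group no library could be tested for standing apart from its group.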

How the results depend on the processing

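Under 15 alternatives no named gene that was called changed sign, and 48 of 1296 values of named genes, all not called, did. The count of F-box genes called lower in PIASy-WT against non-injection was 5 with an FPKM of at least 5, 1 without a filter, 4 with only the groups compared and 6 with voom, and 0 to 4 when 1 library was left out. Over all genes the first 4 settings called 17.4%, 0.553%, 9.71% and 11.8% lower. Against PIASy-Mut it was 5, 1, 0 and 8 in the same order, 1 with quantile normalization, 1 with upper quartile scaling, where all genes gave 17.9%, 0.873%, 0%, 11.7%, 3.04% and 3.39%, and 0 to 7 when 1 library was left out. Calls higher against non-injection were 2 with only the groups compared, 2 with voom and 0 to 2 with 1 library left out, and against PIASy-Mut 1 with voom and 0 to 3. Over all genes these were 4.53%, 4.99% and 0% to 5.84%, and 3.31% and 0% to 6.63%. Where 1 library was left out, the lone library of its group was assumed to vary like the others. The cause was not tested. The replicate block gave 2 and 3 genes lower and 0 higher, as without it.

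The median of the cluster was 0.55 (quantile normalization) and 0.53 (upper quartile scaling) against non-injection, and 0.58 and 0.57 against PIASy-Mut, where the median of all genes also rose, to 0.12 and 0.18, and to 0.11 and 0.20. It was 0.23 to 0.34 and 0.14 to 0.38 with 1 library left out, and 11 to 14 of its genes stayed above 0. With an FPKM of at least 5 the median of the other F-box genes was -0.25 and -0.30, where that of all genes was -0.11 and -0.14. Genes could pass that filter through the groups where they are high. The median of the other F-box genes was 0.24 against non-injection with quantile normalization, 0.31 and 0.36 with upper quartile scaling, and -0.11 to 0.11 and -0.067 to 0.13 with 1 library left out. Levels under 3 fragments, or 2.20 to 3.44 CPM, were not detectable.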
